A study of Saccharomyces cerevisiae with 12 samples.

Results

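The 54 genes described here build and attach the mannose-rich sugar chains of yeast glycoproteins. Membership follows the gene's annotated role, by symbol or synonym, with no threshold on a measured value, although earlier results of these data were known when the set was drawn up. Each was matched to 1 of the 5498 probe sets that carry a single Saccharomyces cerevisiae gene name. The cell activates mannose and glucose as nucleotide or dolichol-linked donors, assembles a branched oligosaccharide on the lipid dolichol in the endoplasmic reticulum (ER), and transfers it as a block to asparagine residues of secretory proteins by the oligosaccharyltransferase (N-glycosylation). Serine and threonine residues receive single mannoses from the PMT enzymes (O-mannosylation). In the Golgi, mannosyltransferases lengthen and branch these chains, and the resulting mannoproteins form the outer layer of the yeast cell wall.

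The study asked which yeast transcripts respond to low-shear modeled microgravity (LSMMG). RNA was taken from whole cells of the diploid laboratory strain BY4743, grown in log phase in the rich medium YPD at 30 °C in high aspect ratio vessels (HARVs), which are filled, rotating culture vessels. The LSMMG cultures were rotated in the vertical position and the control cultures in the horizontal position, and all were kept in log phase by serial dilution. Each of the 12 samples was hybridized to 1 Affymetrix Yeast Genome 2.0 array: 3 control arrays of 5 generations and 3 of 25 generations by their titles (together Ctrl), and 3 LSMMG arrays of each age, called SMG 5 and SMG 25. Every array is of 1 strain, grown in rotating vessels, so the comparison is between vessel positions and not with a flask culture. The growth field of every sample gives 5 generations, which goes against the titles that give 25, and a cluster map of the study divides the controls unequally between the times. The titles were followed, and each result that separates the controls by generation rests on them. Nothing states that replicates came from separate cultures, so p-values measure only the spread between these arrays.

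The values are ratios to a level of the probe set's own, near its median over the 12 arrays. They therefore compare arrays for 1 gene and cannot rank genes by abundance, nor show whether a gene was off. The ratios of the 54 genes ran from 0.4 to 2.155. The methods describe the removal of 1 aberrant control array without naming it, and all 6 control arrays with values were used. The study's cluster map of its significant genes also shows 6 control arrays. Whether the removed array is among those used here is not stated. Ctrl 5 replicates 1 and 2 stood apart from the others, with correlations of 0.17 to 0.609 to the other 4 control arrays, which correlated at 0.841 to 0.948 among themselves. This bears on these genes: of the 35 that passed the test at 5 generations, 24 had both of these arrays beyond the other 4 control arrays on the side of the LSMMG arrays and 2 on the far side. The same count was not made over all named probe sets, so whether 24 of 35 exceeds the background was not tested. Counts are given below with and without Ctrl 5 replicates 1 and 2.

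Across the set, falls outnumbered rises in LSMMG, while among all named genes rises outnumbered falls. At 5 generations 23 of the 54 genes were lower than in Ctrl, 12 were higher and 19 did not pass the test (limma, Benjamini-Hochberg adjusted p under 0.05). The share that fell was 42.6%, against 26.8% of all named probe sets and 18.3% of the 8968 probe sets tested. The share that rose was 22.2%, against 34.2% of named probe sets and 22.5% of those tested. At 25 generations 22 fell, 16 rose and 16 did not pass. The 22 made up 40.7%, against 25.4% of named probe sets and 17.9% of those tested, and the 16 that rose made up 29.6%, against 33% and 21.7%. The median log2 fold change of the 54 genes was -0.19 at 5 and -0.12 at 25 generations, beside 0.13 and 0.15 for all named probe sets. Both comparisons use the same 6 Ctrl arrays. Without Ctrl 5 replicates 1 and 2, 27 genes fell and 15 rose at 5 generations, and 24 fell and 19 rose at 25 generations. The genes that passed only then were ALG3, STT3, MNN2, KTR3, OCH1, MNT3 and MNN4 at 5 generations, and MNN2, MNT2, ALG9, OCH1 and KRE2 at 25. Shares of named probe sets were not computed without these arrays.

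Most of these differences were moderate. A fall of at least 2-fold was found for 9 genes at 5 generations (16.7%, against 8.62% of named probe sets) and for 6 at 25 generations (11.1%, against 8.15%). A rise of at least 2-fold was found for 1 gene at 5 generations (1.85%, against 13.6% of named probe sets) and for 2 at 25 generations (3.7%, against 12.2%). The 3 LSMMG arrays all lay beyond the 6 Ctrl arrays for 32 genes at 5 generations (59.3%, against 56.5% of named probe sets, which is near the background) and for 38 at 25 generations (70.4%, against 54.8%).

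**Figure D1:**
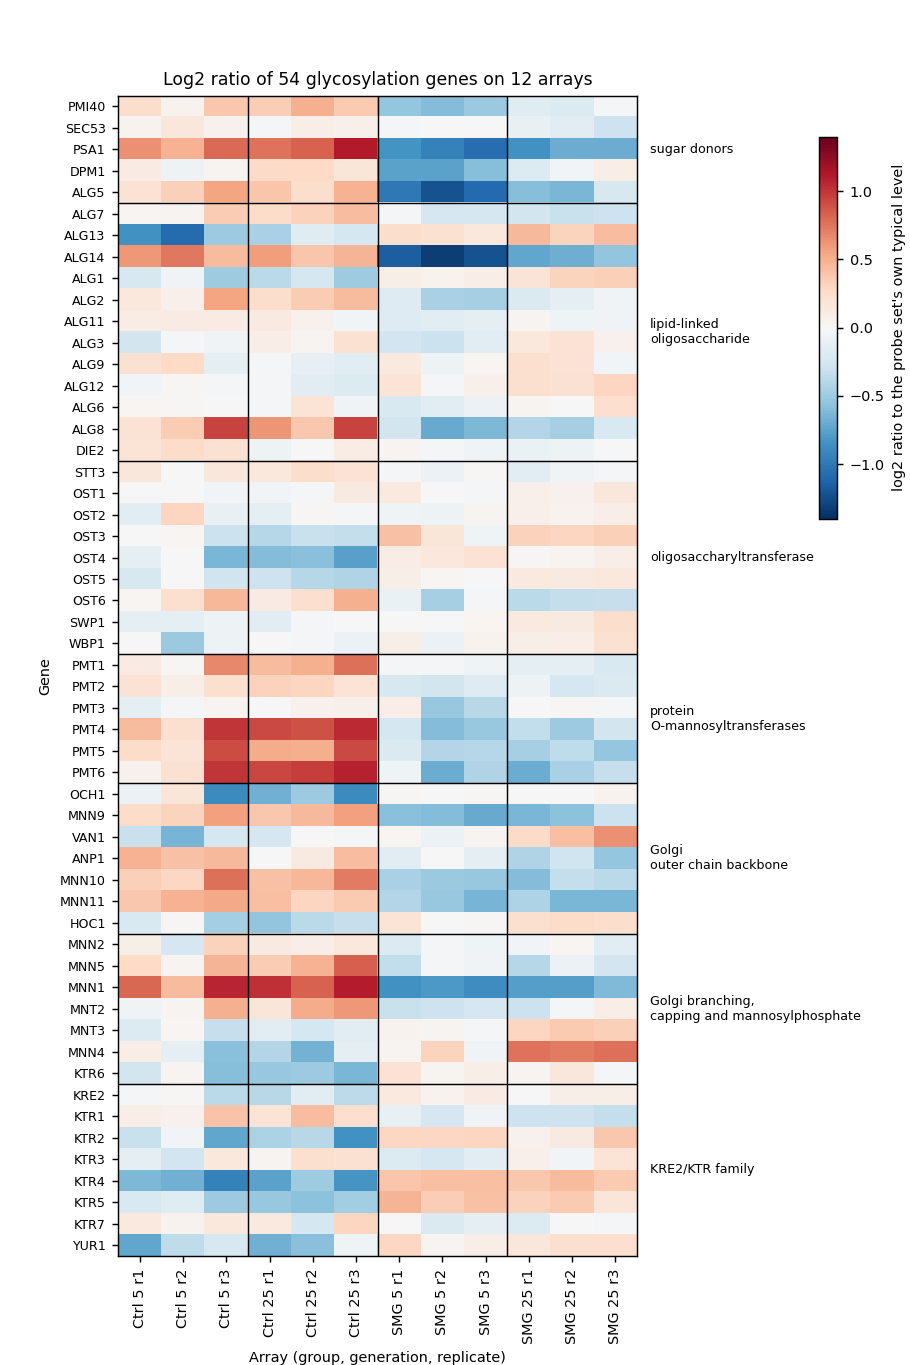
Log2 ratio of each of the 54 genes (rows, grouped by role) on each of the 12 arrays (columns, grouped by condition and generation), in colour from blue (below the probe set's own typical level) to red (above it). PSA1, MNN1, PMT4 and PMT6 are red on the control arrays and blue in LSMMG, KTR4 runs the other way, and Ctrl 5 replicates 1 and 2 are paler than the other control arrays for PMT1, PMT4, PMT5 and PMT6.

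**Figure D2:**
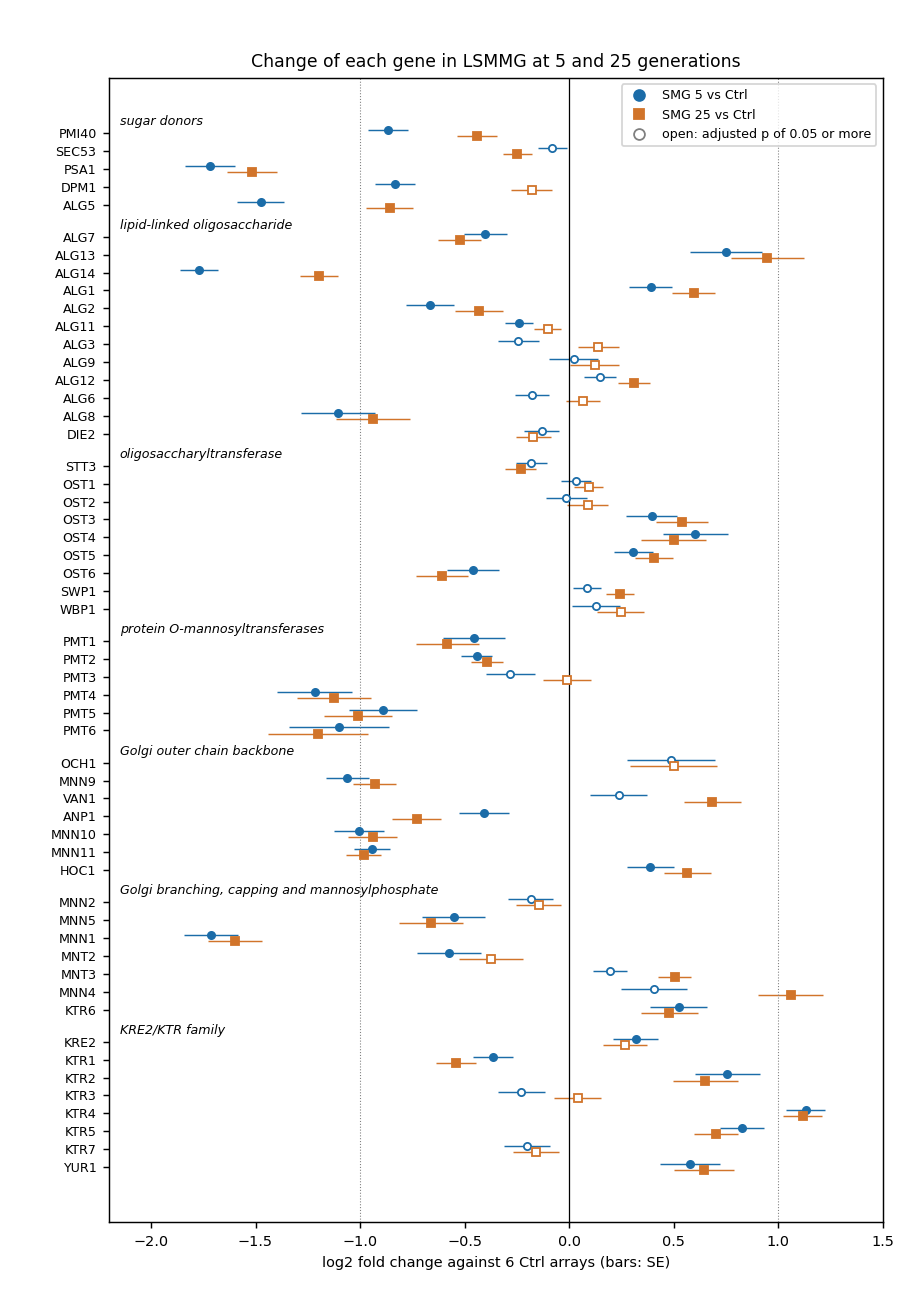
Log2 fold change of each gene in SMG 5 (circles) and SMG 25 (squares) against the 6 Ctrl arrays, with bars of 1 standard error (SE) and open symbols where the adjusted p was 0.05 or more. Dotted lines mark 2-fold; ALG14, PSA1 and MNN1 lie farthest to the left and KTR4 farthest to the right at 5 generations.

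The enzymes that supply activated sugars were mostly lower in LSMMG: 4 of 5 fell at each time and none rose. This is 80% at each time, in a group of 5, against 26.8% and 25.4% of named probe sets. PSA1 (YDL055C) encodes GDP-mannose pyrophosphorylase, which makes the mannose donor on which all later mannosylation depends. Its ratio was 1.401 at the lowest, 1.715 at the median and 2.155 at the highest of the Ctrl arrays, 0.56, 0.521 and 0.479 on the SMG 5 arrays, and 0.557, 0.616 and 0.616 on the SMG 25 arrays. The groups were far apart, and PSA1 was 3.29-fold lower at 5 generations (log2 fold change -1.72, SE 0.12, adjusted p = 1.21e-06) and 2.86-fold lower at 25 (-1.52, SE 0.12, adjusted p = 2.87e-06). From the lowest, it stood in place 121 among the 5498 named probe sets at 5 generations. PMI40, the isomerase that makes mannose-6-phosphate from a glycolytic intermediate, was 1.83-fold lower at 5 generations (adjusted p = 2.71e-05) and 1.36-fold lower at 25 (adjusted p = 0.00285). SEC53, the phosphomannomutase that acts between PMI40 and PSA1, had the smallest log2 fold change of the 5 at 5 generations, -0.08 (adjusted p = 0.405). At 25 it was 1.19-fold lower (log2 fold change -0.25, adjusted p = 0.0135), a call that did not pass without SMG 25 replicate 3 (adjusted p = 0.0826).

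DPM1 and ALG5 hand mannose and glucose from their nucleotide donors to dolichol phosphate, for use inside the ER. DPM1 had a ratio of 0.952 at the lowest, 1.101 at the median and 1.214 at the highest of the Ctrl arrays, 0.594, 0.593 and 0.661 in SMG 5, and 0.876, 0.971 and 1.069 in SMG 25. Its SMG 5 arrays lay below every Ctrl array while its SMG 25 arrays overlapped them. DPM1 was 1.78-fold lower at 5 generations (log2 fold change -0.83, SE 0.10, adjusted p = 4.30e-05), and its value at 25 generations was -0.18 (SE 0.10, adjusted p = 0.178). ALG5 had a ratio of 1.154 at the lowest, 1.282 at the median and 1.472 at the highest of the Ctrl arrays, 0.498, 0.43 and 0.469 in SMG 5, and 0.66, 0.644 and 0.854 in SMG 25. All LSMMG arrays lay below all Ctrl arrays, and ALG5 was 2.78-fold lower at 5 generations (adjusted p = 2.38e-06) and 1.81-fold lower at 25 (adjusted p = 9.26e-05).

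The 12 genes that assemble the oligosaccharide on dolichol moved in both directions, with 5 lower and 2 higher at 5 generations and 4 lower and 3 higher at 25. Falls made up 41.7% and 33.3%, against 26.8% and 25.4% of named probe sets. Rises made up 16.7% and 25%, against 34.2% and 33%. The most marked contrast was within a single enzyme. ALG13 encodes the catalytic subunit, and ALG14 the membrane anchor, of the transferase that adds the second N-acetylglucosamine. ALG14 had a ratio of 1.313 at the lowest, 1.4435 at the median and 1.674 at the highest of the Ctrl arrays, 0.45, 0.4 and 0.431 in SMG 5, and 0.602, 0.623 and 0.683 in SMG 25. It had the largest fall among the 54 genes at 5 generations, 3.41-fold (log2 fold change -1.77, SE 0.09, adjusted p = 2.29e-07), and was 2.29-fold lower at 25 (-1.20, SE 0.09, adjusted p = 2.32e-06). ALG13 had a ratio of 0.474 at the lowest, 0.7165 at the median and 0.887 at the highest of the Ctrl arrays, 1.182, 1.16 and 1.107 in SMG 5, and 1.374, 1.237 and 1.346 in SMG 25. The transcript of the catalytic subunit was thus higher on every LSMMG array than on any Ctrl array, by 1.68-fold at 5 generations (log2 fold change 0.75, SE 0.17, adjusted p = 0.00429) and 1.93-fold at 25 (0.95, SE 0.17, adjusted p = 0.000991). Its 2 lowest Ctrl arrays were Ctrl 5 replicates 1 and 2, at 0.557 and 0.474, which lie on the far side from LSMMG. Without them the log2 fold change was 0.55 at 5 generations (adjusted p = 0.000482) and 0.74 at 25 (adjusted p = 5.12e-05).

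The cytosolic steps around this enzyme were also divided. ALG7, which starts the chain and is the target of tunicamycin, was 1.32-fold lower at 5 and 1.44-fold lower at 25 generations (adjusted p = 0.00843 and 0.00165). ALG1, which adds the first mannose, was 1.31-fold and 1.51-fold higher (adjusted p = 0.00924 and 0.00068), and ALG2, which adds the next mannoses, was 1.58-fold and 1.35-fold lower (adjusted p = 0.000635 and 0.00992). ALG11, which adds the last mannoses on the cytosolic side, was 1.18-fold lower at 5 generations (adjusted p = 0.0122) and did not pass at 25 (log2 fold change -0.10, adjusted p = 0.251).

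Inside the ER, the mannosyltransferases ALG3 and ALG9 did not pass at either time, with log2 fold changes between -0.24 and 0.14. ALG12, the remaining mannosyltransferase of this side, was 1.24-fold higher at 25 generations (adjusted p = 0.00669) and had a log2 fold change of 0.15 at 5 (adjusted p = 0.152). Of the glucosyltransferases that cap the chain, ALG6 and DIE2, which add the first and the last glucose, did not pass at either time (log2 fold changes between -0.18 and 0.07). ALG8, which adds the glucose between them, had a ratio of 1.148 at the lowest, 1.4185 at the median and 1.928 at the highest of the Ctrl arrays, 0.839, 0.611 and 0.645 in SMG 5, and 0.75, 0.725 and 0.86 in SMG 25. Its Ctrl arrays were widely spread but all lay above the LSMMG arrays. ALG8 was 2.15-fold lower at 5 generations (adjusted p = 0.000392) and 1.92-fold lower at 25 (adjusted p = 0.00121).

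The oligosaccharyltransferase genes differed little, and none by 2-fold. At 5 generations 3 of 9 were higher and 1 lower, and at 25 generations 4 were higher and 2 lower. Rises made up 33.3% and 44.4%, against 34.2% and 33% of named probe sets. Falls made up 11.1% and 22.2%, against 26.8% and 25.4%. STT3, the catalytic subunit, had log2 fold changes of -0.18 (adjusted p = 0.0718) and -0.23 (adjusted p = 0.0259). The call at 25 generations was lost without SMG 25 replicate 1 (adjusted p = 0.125) or replicate 2 (adjusted p = 0.0574). OST1, OST2 and WBP1 did not pass at either time, with log2 fold changes between -0.01 and 0.25. SWP1 was 1.18-fold higher at 25 generations (adjusted p = 0.0121), but not without SMG 25 replicate 3 (adjusted p = 0.0669). WBP1 is also represented by 3 control probe sets along its transcript. On these, log2 differences from Ctrl were 0.10 to 0.37 at 5 and 0.28 to 0.42 at 25 generations. Ctrl 5 replicate 2 was the lowest array on all 3. By the names of the probe sets, its ratio was 0.276 at the 5' end, 0.427 in the middle and 0.658 at the 3' end. Less steep gradients in this order were seen on Ctrl 25 replicate 1 (0.682, 0.777 and 0.996) and Ctrl 5 replicate 1 (0.811, 0.839 and 1.005). The other Ctrl arrays did not rise in this order, while SMG 5 replicate 1 and the SMG 25 arrays did. The cause of these gradients was not tested.

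The small subunits OST4 and OST5 were higher at both times. OST4, a very short membrane peptide that helps to hold the complex together, had a ratio of 0.59 at the lowest, 0.663 at the median and 0.999 at the highest of the Ctrl arrays, 1.078, 1.109 and 1.149 in SMG 5, and 1.013, 1.028 and 1.061 in SMG 25. The 2 highest Ctrl arrays were Ctrl 5 replicates 1 and 2, at 0.917 and 0.999, close to the SMG 25 arrays. OST4 was 1.52-fold higher at 5 generations (log2 fold change 0.60, SE 0.15, adjusted p = 0.00795) and 1.41-fold higher at 25 (0.50, SE 0.15, adjusted p = 0.0222). The latter call was lost when SMG 25 replicate 1, 2 or 3 was left out (adjusted p = 0.0594, 0.0638 and 0.0745), while without Ctrl 5 replicates 1 and 2 the log2 fold changes were 0.80 and 0.69 (adjusted p = 3.26e-06 and 1.02e-05). OST5 was 1.24-fold and 1.32-fold higher (adjusted p = 0.0191 and 0.00412), and its call at 5 generations was lost without SMG 5 replicate 1 or 2 (adjusted p = 0.0759 and 0.0531).

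OST3 and OST6 encode alternative oxidoreductase subunits that define different forms of the complex, and they moved in opposite directions. OST6 had a ratio of 1.023 at the lowest, 1.175 at the median and 1.411 at the highest of the Ctrl arrays, 0.939, 0.723 and 0.98 in SMG 5, and 0.769, 0.794 and 0.799 in SMG 25. All LSMMG arrays lay below all Ctrl arrays, by a narrow margin at 5 generations. OST6 was 1.37-fold lower at 5 (log2 fold change -0.46, SE 0.12, adjusted p = 0.0108) and 1.52-fold lower at 25 (-0.61, SE 0.12, adjusted p = 0.00201). OST3 was 1.32-fold higher at 5 (adjusted p = 0.0217) and 1.45-fold higher at 25 (adjusted p = 0.00394). At 5 generations the call for OST6 was lost without SMG 5 replicate 2 (adjusted p = 0.0702), and that for OST3 without SMG 5 replicate 1 (adjusted p = 0.134) or replicate 2 (adjusted p = 0.0615).

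The protein O-mannosyltransferases were lower in LSMMG as a family: 5 of 6 fell at each time and none rose. The falls made up 83.3% at each time, in a group of 6, against 26.8% and 25.4% of named probe sets. PMT3 was the member that did not pass, with log2 fold changes of -0.28 (adjusted p = 0.0744) and -0.01 (adjusted p = 0.96). PMT4, the family member that works as a homodimer and acts largely on membrane-attached proteins, had a ratio of 1.168 at the lowest, 1.8745 at the median and 2.058 at the highest of the Ctrl arrays, 0.842, 0.656 and 0.691 in SMG 5, and 0.786, 0.701 and 0.839 in SMG 25. It was 2.32-fold lower at 5 generations (log2 fold change -1.22, SE 0.18, adjusted p = 0.000215) and 2.18-fold lower at 25 (-1.12, SE 0.18, adjusted p = 0.000377). PMT6 had a ratio of 1.043 at the lowest, 1.9385 at the median and 2.11 at the highest of the Ctrl arrays, 0.958, 0.62 and 0.748 in SMG 5, and 0.62, 0.73 and 0.797 in SMG 25. It was 2.14-fold and 2.30-fold lower (adjusted p = 0.00303 and 0.00175).

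PMT5 had a ratio of 1.139 at the lowest, 1.432 at the median and 1.899 at the highest of the Ctrl arrays, 0.87, 0.754 and 0.759 in SMG 5, and 0.723, 0.779 and 0.688 in SMG 25. It was 1.85-fold lower at 5 generations (adjusted p = 0.000931) and 2.01-fold lower at 25 (adjusted p = 0.000405). For PMT4, PMT5 and PMT6 the LSMMG arrays lay below every Ctrl array, but the Ctrl arrays were not of one level: Ctrl 5 replicates 1 and 2 were the lowest of them, at 1.363 and 1.168 for PMT4, 1.195 and 1.139 for PMT5, and 1.043 and 1.158 for PMT6. Without these arrays the log2 fold changes at 5 and 25 generations were -1.43 and -1.33 for PMT4, -1.06 and -1.18 for PMT5, and -1.39 and -1.49 for PMT6.

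PMT1 and PMT2 encode the partners of the main heterodimer of the family. PMT2 was 1.36-fold lower at 5 generations (adjusted p = 0.000625) and 1.31-fold lower at 25 (adjusted p = 0.00145). PMT1 was 1.37-fold lower (adjusted p = 0.0282) and 1.5-fold lower (adjusted p = 0.00819), and its call at 5 generations was lost without Ctrl 5 replicate 3 (adjusted p = 0.0524) or SMG 5 replicate 1, 2 or 3 (adjusted p = 0.0776, 0.0696 and 0.0848). PMT1 and PMT5 lie next to each other in the RefSeq gene order of assembly R64.

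In the Golgi, the long N-linked outer chain is begun by OCH1 and extended by the mannan polymerase complexes M-Pol I (MNN9 and VAN1) and M-Pol II (MNN9, ANP1, MNN10, MNN11 and HOC1). The 4 genes MNN9, ANP1, MNN10 and MNN11 fell at both times. They made up 57.1% of this group of 7, against 26.8% and 25.4% of named probe sets. Rises made up 14.3% and 28.6%, against 34.2% and 33%. MNN9, the subunit that both complexes share, had a ratio of 1.196 at the lowest, 1.335 at the median and 1.494 at the highest of the Ctrl arrays, 0.665, 0.658 and 0.611 in SMG 5, and 0.644, 0.67 and 0.812 in SMG 25. It was 2.09-fold lower at 5 generations (log2 fold change -1.06, SE 0.10, adjusted p = 1.02e-05) and 1.91-fold lower at 25 (-0.93, SE 0.10, adjusted p = 2.52e-05). MNN10 had a ratio of 1.223 at the lowest, 1.357 at the median and 1.707 at the highest of the Ctrl arrays, 0.731, 0.696 and 0.69 in SMG 5, and 0.658, 0.793 and 0.769 in SMG 25. It was 2.01-fold and 1.92-fold lower (adjusted p = 4.45e-05 and 7.55e-05). For both genes the LSMMG arrays formed a group well below the controls. MNN11 was 1.92-fold and 1.98-fold lower (adjusted p = 7.32e-06 and 5.31e-06). ANP1 was 1.32-fold and 1.66-fold lower (adjusted p = 0.0165 and 0.000455), and the first of these calls was lost without SMG 5 replicate 1 (adjusted p = 0.0661) or replicate 3 (adjusted p = 0.0612).

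The other subunits and OCH1 did not share this fall. HOC1 had a ratio of 0.683 at the lowest, 0.786 at the median and 1.009 at the highest of the Ctrl arrays, 1.14, 0.994 and 1.015 in SMG 5, and 1.167, 1.199 and 1.19 in SMG 25. SMG 5 replicate 2 lay inside the range of Ctrl, whose highest array was Ctrl 5 replicate 2. HOC1 was 1.31-fold higher at 5 generations (log2 fold change 0.39, SE 0.11, adjusted p = 0.0163) and 1.48-fold higher at 25 (0.57, SE 0.11, adjusted p = 0.00179), the former not without SMG 5 replicate 1 (adjusted p = 0.0852). VAN1 was 1.61-fold higher at 25 generations (adjusted p = 0.00172) and had a log2 fold change of 0.24 at 5 (adjusted p = 0.196). OCH1 did not pass, at 0.49 and 0.50 (adjusted p = 0.087 and 0.0811). Its 6 LSMMG arrays were between 0.993 and 1.031, and 4 Ctrl arrays were between 0.538 and 0.704, while Ctrl 5 replicates 1 and 2 were at 0.943 and 1.126. Without this pair of arrays OCH1 was higher at both times, by 0.75 (adjusted p = 5.91e-05) and 0.76 (adjusted p = 5.52e-05) on the log2 scale, so its call turned on them.

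**Figure D3:**
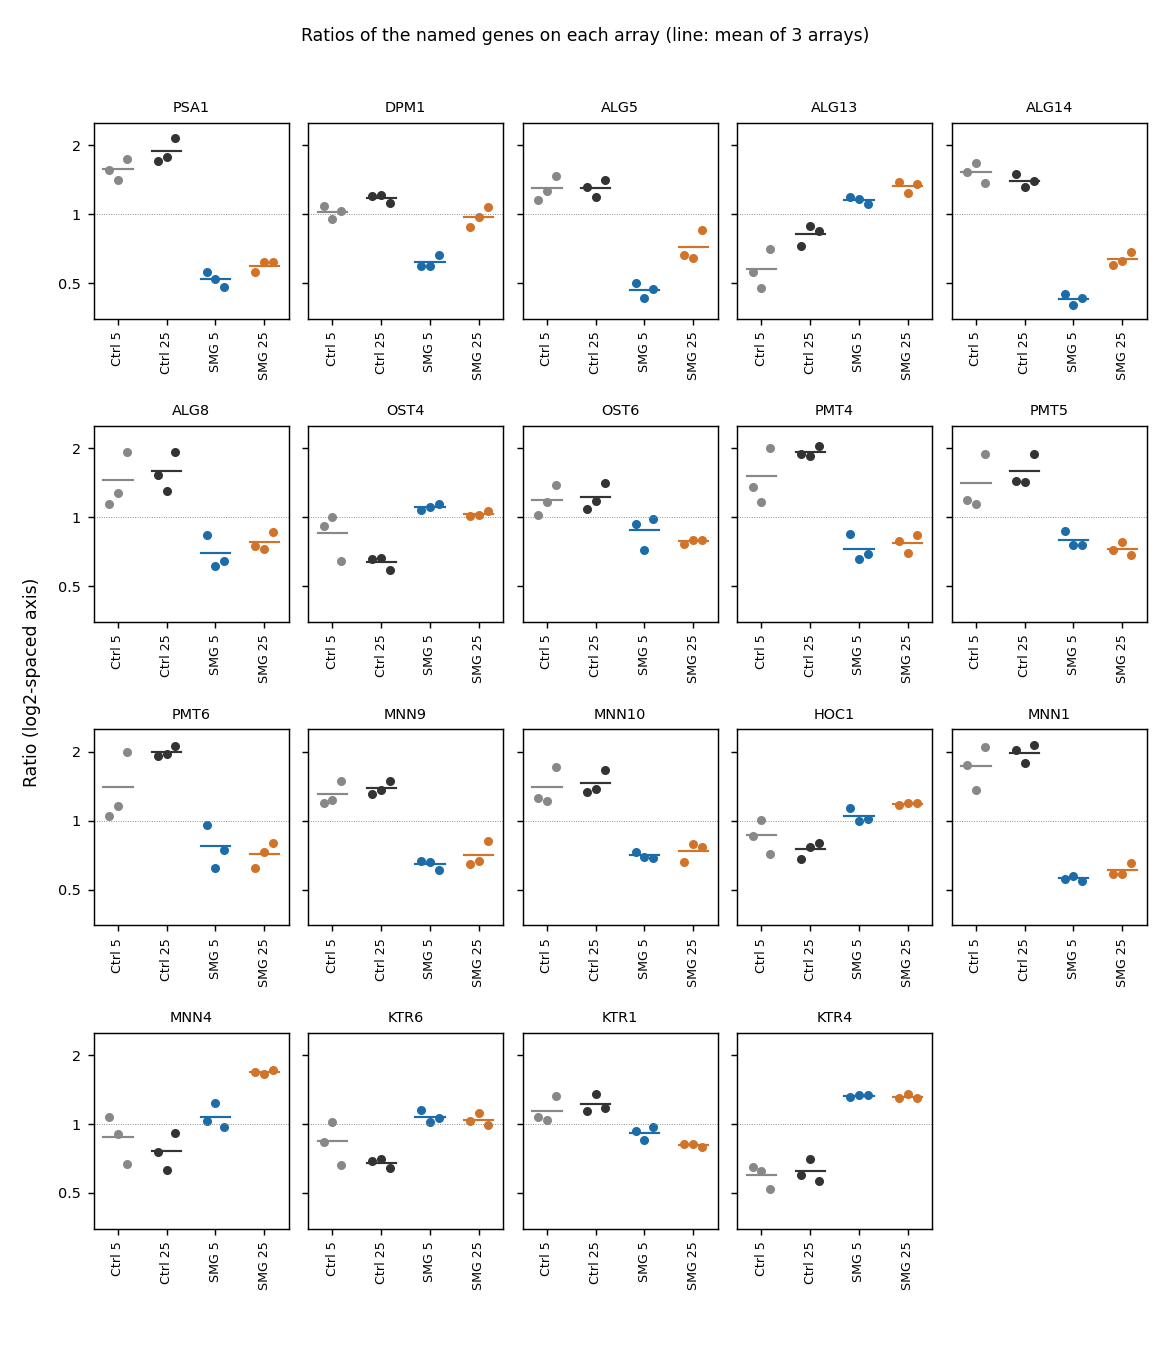
Ratio of 19 genes on each array (points, on an axis spaced by log2) in Ctrl 5, Ctrl 25, SMG 5 and SMG 25, with a line at the mean of 3 arrays. For PSA1, MNN1, ALG14 and ALG5 the control and LSMMG arrays are far apart, and for MNN4 the SMG 25 arrays, at 1.655 to 1.713, lie above all others.

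The genes that branch, cap and phosphorylate the chains contained 1 of the 3 largest falls of the set at 5 generations. MNN1 encodes the mannosyltransferase that adds the terminal mannose to both N- and O-linked chains. Its ratio was 1.363 at the lowest, 1.9025 at the median and 2.136 at the highest of the Ctrl arrays, 0.557, 0.574 and 0.548 in SMG 5, and 0.585, 0.585 and 0.654 in SMG 25. MNN1 was 3.28-fold lower at 5 generations (log2 fold change -1.71, SE 0.13, adjusted p = 2.35e-06) and 3.02-fold lower at 25 (-1.60, SE 0.13, adjusted p = 3.46e-06), which put it in place 122 and 162 from the lowest among the 5498 named probe sets. No LSMMG array came near the lowest Ctrl array, which was Ctrl 5 replicate 2.

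MNT2 and MNT3 belong to the MNN1 family and act on O-linked chains, and they did not follow it together. MNT2 was 1.49-fold lower at 5 generations (adjusted p = 0.0097) with a log2 fold change of -0.37 at 25 (adjusted p = 0.0744), and MNT3 was 1.42-fold higher at 25 generations (adjusted p = 0.000388) with 0.20 at 5 (adjusted p = 0.072). MNN2 and MNN5 place the first and the second mannose of the side branches. MNN2 did not pass at either time (log2 fold changes -0.18 and -0.15), whereas MNN5 was 1.47-fold and 1.58-fold lower (adjusted p = 0.0114 and 0.00419), the former not without SMG 5 replicate 1 (adjusted p = 0.0688).

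MNN4 and KTR6 (MNN6) are needed for mannosylphosphate, which gives the wall a negative charge; MNN4 is a positive regulator and KTR6 a transferase. MNN4 had a ratio of 0.633 at the lowest, 0.831 at the median and 1.069 at the highest of the Ctrl arrays, 1.028, 1.239 and 0.968 in SMG 5, and 1.692, 1.655 and 1.713 in SMG 25. The SMG 25 arrays were close together above all others, while the SMG 5 arrays overlapped the controls through Ctrl 5 replicate 1 alone, at 1.069. MNN4 was 2.08-fold higher at 25 generations (log2 fold change 1.06, SE 0.16, adjusted p = 0.000233), and its value at 5 was 0.41 (SE 0.16, adjusted p = 0.058). Without Ctrl 5 replicates 1 and 2 it passed at 5 generations as well, at 0.55 (adjusted p = 0.00371). KTR6 had a ratio of 0.642 at the lowest, 0.696 at the median and 1.024 at the highest of the Ctrl arrays, 1.151, 1.025 and 1.059 in SMG 5, and 1.028, 1.117 and 0.991 in SMG 25. It was 1.44-fold higher at 5 generations (adjusted p = 0.00891) and 1.39-fold higher at 25 (adjusted p = 0.0147), the latter not without SMG 25 replicate 2 (adjusted p = 0.0684). Its highest Ctrl array was Ctrl 5 replicate 2, level with the lower LSMMG arrays, and without Ctrl 5 replicates 1 and 2 its log2 fold changes were 0.68 and 0.63.

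The KRE2/KTR family was the group in which rises were most frequent, with 5 of 8 genes at 5 generations and 4 of 8 at 25, while 1 fell at each time. These are shares of 62.5% and 50%, against 34.2% and 33% of named probe sets, in a group of 8, and the rise of KRE2 at 5 generations depended on single arrays. KTR6, placed above with mannosylphosphate, is not among the 8 and was higher at both times. At 25 generations the oligosaccharyltransferase genes, at 44.4%, and the branching group, at 42.9%, came close. Members of the KRE2/KTR family are related Golgi mannosyltransferases that extend O-linked and N-linked chains. For several of them the function is only inferred from the family. KTR4, a putative mannosyltransferase, had a ratio of 0.519 at the lowest, 0.6115 at the median and 0.707 at the highest of the Ctrl arrays, 1.311, 1.339 and 1.343 in SMG 5, and 1.303, 1.356 and 1.294 in SMG 25. The LSMMG arrays differed little among themselves and lay far above the controls. KTR4 was 2.19-fold higher at 5 generations (log2 fold change 1.13, SE 0.09, adjusted p = 3.88e-06) and 2.17-fold higher at 25 (1.12, SE 0.09, adjusted p = 4.02e-06). KTR5, also putative, was 1.77-fold and 1.63-fold higher (adjusted p = 7.86e-05 and 0.000248), KTR2 1.69-fold and 1.57-fold (adjusted p = 0.002 and 0.00516), and YUR1 1.49-fold and 1.57-fold (adjusted p = 0.00654 and 0.00337).

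KTR1 was the family member that fell. Together with KRE2 and KTR3 it adds mannoses to O-linked chains. The ratio of KTR1 was 1.042 at the lowest, 1.1575 at the median and 1.35 at the highest of the Ctrl arrays, 0.932, 0.849 and 0.969 in SMG 5, and 0.817, 0.815 and 0.795 in SMG 25. KTR1 was 1.29-fold lower at 5 generations (adjusted p = 0.00949) and 1.45-fold lower at 25 (adjusted p = 0.0008), the former not without SMG 5 replicate 2 (adjusted p = 0.0545). KRE2 was 1.25-fold higher at 5 generations (adjusted p = 0.0305), a call that was lost when any of Ctrl 5 replicate 3, Ctrl 25 replicate 1, Ctrl 25 replicate 3 or SMG 5 replicates 1, 2 and 3 was left out (adjusted p between 0.0564 and 0.102). At 25 generations its log2 fold change was 0.27 (adjusted p = 0.0643), and without Ctrl 5 replicates 1 and 2 it was 0.37 (adjusted p = 0.00213). KTR3 and KTR7 did not pass at either time, with log2 fold changes between -0.23 and 0.04.

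Genes of related or partner proteins were set against each other on the same array as the difference of their log2 ratios, with no test. The pairs were chosen with earlier results known, and more than 50% of single named genes also had all arrays of an LSMMG time beyond the Ctrl arrays, so the separate pairs are described for themselves and not counted as a result. OST3 minus OST6 was -0.83 to -0.04 on the Ctrl arrays and -0.03 to 0.70 on the LSMMG arrays. The nearest values were those of SMG 5 replicate 3 and Ctrl 5 replicate 1, so this separation was narrow. ALG6 minus ALG8 was -1.0 to -0.17 in Ctrl and 0.04 to 0.56 in LSMMG, MNT2 minus MNT3 was 0.01 to 0.82 and -0.60 to -0.22, and KTR5 minus KTR7 was -0.79 to -0.23 and 0.19 to 0.55. PMT1 minus PMT5 was -0.24 to -0.01 in Ctrl and 0.17 to 0.39 in LSMMG, and MNN2 minus MNN5 was -0.68 to -0.16 and -0.01 to 0.36. MNN10 and MNN11 kept a like relation, with -0.19 to 0.37 in Ctrl and -0.18 to 0.31 in LSMMG. The pairs PMT2 and PMT3, KRE2 and KTR6, KTR1 and KTR3, and KTR2 and YUR1 also overlapped.

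**Figure D4:**
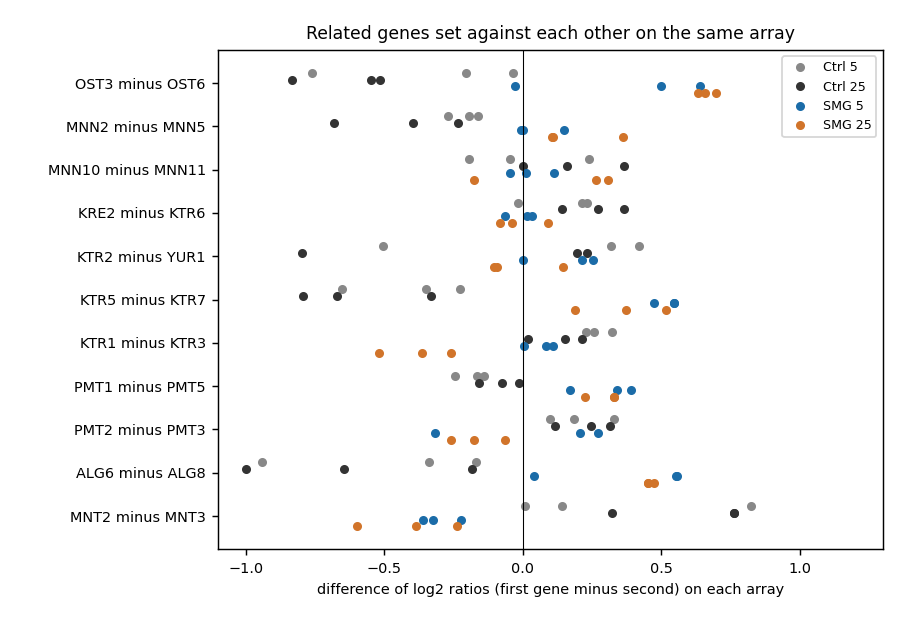
Difference of log2 ratios between the first and the second gene of each pair (horizontal axis) on each array (points, by group). The Ctrl points lie to the left of the LSMMG points for OST3 minus OST6 and KTR5 minus KTR7, to the right for MNT2 minus MNT3, and overlap for MNN10 minus MNN11.

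Between the LSMMG times, 3 of the 54 genes differed and all 3 were higher at 25 than at 5 generations; 1.71% of all probe sets tested and 2.69% of those named passed this comparison. DPM1 was higher by 0.66 on the log2 scale (SE 0.11, adjusted p = 0.0213), ALG14 by 0.57 (SE 0.10, adjusted p = 0.0276) and ALG5 by 0.62 (SE 0.13, adjusted p = 0.0409). For each of them the 3 SMG 25 arrays lay above the 3 SMG 5 arrays. These calls were not stable: none of the 3 passed when any of the 6 LSMMG arrays was left out, with adjusted p of 0.0526 to 0.126 for DPM1, 0.0722 to 0.146 for ALG14 and 0.0758 to 0.205 for ALG5, and ALG5 was also lost without Ctrl 25 replicate 1 (0.0594) or replicate 3 (0.0532). MNN4, whose SMG 25 arrays also lay above its SMG 5 arrays, differed by 0.65 (SE 0.18, adjusted p = 0.112).

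Between control arrays of 25 and 5 generations none of the 54 genes passed in limma, beside 0.134% of all probe sets tested, and 10 had an unadjusted p under 0.05. ALG13 came nearest, with a log2 difference of 0.52 (SE 0.13, adjusted p = 0.0792). Without Ctrl 5 replicate 3, so that the 5-generation controls were replicates 1 and 2 alone, 19 genes passed, among them ALG13, PMT4, PMT5, PMT6, OCH1 and MNN1. The difference between the times in the response to LSMMG, with each time set against its own controls, passed for none of the 54 genes (0.167% of all probe sets tested), and 8 had an unadjusted p under 0.05. ALG14 was nearest, at 0.69 (SE 0.14, adjusted p = 0.118), followed by MNN4 at 0.84 (SE 0.25, adjusted p = 0.175). Without Ctrl 5 replicate 3, 12 genes passed. Shares of all probe sets were taken from the main fit only, so counts with other sets of control arrays have no background here. With controls of the same generation only, 20 genes fell and 8 rose at 5 generations, and 24 fell and 18 rose at 25. The calls at 5 generations that were lost in this way were the rises of OST3, OST5, HOC1, KTR6 and KRE2 and the falls of ALG7, PMT1, MNN5 and MNT2. Calls gained were a fall of DIE2 (adjusted p = 0.0392) and a rise of VAN1 (adjusted p = 0.0351) at 5 generations. At 25 they were falls of DPM1 (log2 fold change -0.28, adjusted p = 0.0337) and MNT2 (adjusted p = 0.0246) and rises of OCH1 (adjusted p = 0.0186) and KRE2 (adjusted p = 0.0255).

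The neighbouring steps of glycan metabolism were mixed. Of 15 measured genes for dolichol synthesis, nucleotide-sugar transport and hexosamine supply, 5 were lower and 3 higher at 5 generations, and 5 lower and 4 higher at 25. The shares that fell, 33.3% at each time, compare with 26.8% and 25.4% of named probe sets, and the shares that rose, 20% and 26.7%, with 34.2% and 33%. VRG4, which carries GDP-mannose into the Golgi, had log2 fold changes of -0.80 (SE 0.09, adjusted p = 2.98e-05) and -0.60 (SE 0.09, adjusted p = 0.000217). GDA1, which clears the GDP that the Golgi mannosyltransferases release, was lower by more, at -1.39 and -1.4 (SE 0.14). NUS1, a subunit of the enzyme that makes the dolichol chain, was higher at 1.08 and 1.13 (SE 0.10). Of 14 genes of glycan trimming and ER-associated degradation, 6 rose and 2 fell at 5 generations, while 8 rose and none fell at 25. The rises were 42.9%, near the 34.2% of named probe sets, and 57.1%, against 33%. They included GTB1, a subunit of the trimming glucosidase, at 0.68 and 1.12 (SE 0.10), HRD1, a ubiquitin ligase of the ER, at 0.85 and 0.73 (SE 0.11), and PNG1, which removes N-glycans from misfolded proteins, at 0.56 and 0.67 (SE 0.09).

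Among 27 genes of the glycosylphosphatidylinositol (GPI) anchor, which also draws on dolichol-phosphate mannose, 7 were lower and 5 higher at 5 generations and 6 lower and 5 higher at 25. The falls, 25.9% and 22.2%, were near the background of 26.8% and 25.4%, and the rises, 18.5% at each time, were below 34.2% and 33%. MCD4, which adds ethanolamine phosphate to the anchor, had log2 fold changes of -1.92 and -1.91 (SE 0.20), PBN1, needed for an early mannosylation step, 1.20 and 1.12 (SE 0.10), and GPI17, a subunit of the transamidase, 0.25 and 0.64 (SE 0.07). Of 17 genes of ER folding and the unfolded protein response, 2 rose and 2 fell at 5 generations, while 8 rose and none fell at 25. The rises were 12% and 47.1%, against 34.2% and 33% of named probe sets. CPR5, an ER prolyl isomerase, had 0.49 and 0.69 (SE 0.14), EUG1, a protein disulfide isomerase, 0.17 (adjusted p = 0.325) and 0.58 (SE 0.13, adjusted p = 0.00275), and EPS1, of the same family, 0.06 (adjusted p = 0.642) and 0.40 (SE 0.09, adjusted p = 0.00275).

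Genes of other yeast cell states were read in the same groups. Of 12 haploid-specific genes, 4 were higher at 5 generations, and 3 were higher and 1 lower at 25. Rises made up 33.3% and 25%, no more than the 34.2% and 33% of named probe sets. Rises of at least 2-fold were found for 4 genes at 5 generations (33.3%, against 13.6% of named probe sets). At 25 generations they were found for 2 genes (16.7%, near the 12.2% of named probe sets). The median log2 fold change of this list was 0.68 and 0.59, beside 0.13 and 0.15 for all named probe sets. STE18, a subunit of the mating G protein, had log2 fold changes of 3.01 and 1.17 (SE 0.27), the a-factor gene MFA1 2.29 and 1.06 (SE 0.36), and RME1, a repressor of meiosis, -0.20 (adjusted p = 0.488) and -0.79 (SE 0.20, adjusted p = 0.00859). Of 12 genes of meiosis and sporulation, 8 were higher and none lower at each time (66.7%), with NDT80 at 1.85 and 1.38 (SE 0.29), SPR3 at 1.37 and 2.48 (SE 0.47) and IME1 at 0.90 and 0.80 (SE 0.18). The median ratio of the haploid list was 0.465 to 1.4 on the Ctrl arrays and 0.975 to 1.37 on the LSMMG arrays, and that of the meiosis list 0.375 to 1.09 and 0.945 to 1.37. Both lists overlapped through the 5-generation controls, and on the 3 Ctrl 25 arrays neither exceeded 0.566. Because ratios carry no absolute level, absence of these transcripts from the diploid controls could not be read, and the part of these cell states in the values of the 54 genes was not tested.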

How the data were processed

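RNA of BY4743 was measured on 12 Affymetrix arrays. The authors normalized the scanned arrays by RMA and analyzed them in GeneSpring, and the deposited values are linear ratios: each array has a median of 1, and the probe set medians run from 0.9935 to 1.0105. The settings of this scaling are not given in the sources used here. Intensities were not used here, so the authors' signal minimum, background corrections and filters on dim probe sets could not be applied, and precision is limited by the number of arrays.

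The log2 of each ratio was used, with nothing added. Of 10928 probe sets, 1746 assigned to Schizosaccharomyces pombe, 213 array controls and 1 with several symbols were left out, which kept 8968 (5498 with 1 S. cerevisiae gene and 3470 without a name). Genes were named from the platform annotation. limma 3.58.1 in R 4.3.3 was fitted with the groups Ctrl, SMG 5 and SMG 25, the 6 controls combined as in the methods, and with 4 groups for contrasts of the controls and the interaction. Two-sided moderated tests were adjusted by Benjamini-Hochberg over all 8968 probe sets and called under 0.05. The steps were tested on simulated data. Plots were made in Python 3.11.15 (matplotlib 3.10.9).

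The 54 genes, their roles, the lists of neighbouring pathways and the pairs were chosen with earlier results of these data known. Values on the arrays are given for each gene called with at least 2-fold change at either time, or called between the LSMMG times, between the controls or in the interaction, and for the largest rise and fall of each role at 5 generations. Up to 3 called genes of each neighbouring list are named by their moderated statistic. Alternatives were other normalizations, control arrays, variance models, array weights, a replicate block, the methods' t-test, other sets of probe sets, fold minimums and leaving out each array.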

Additional observations from a re-analysis of the deposited data

Results flagged for a closer look

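Among the 6 control arrays, 1 array lay far from the other 5 for 3 of the 54 genes examined, where chance marks about 1 group in 20. WBP1 had a ratio of 0.697 on Ctrl 5 replicate 2 and 0.948 to 1.004 on the others, and the WBP1 control probe sets were also lowest on this array. OST1 had 1.092 on Ctrl 25 replicate 3, against 0.971 to 1.003. ALG6 had 1.145 on Ctrl 25 replicate 2, against 0.963 to 1.022. None of these 3 genes passed the test against LSMMG at either time.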

How the results depend on the processing

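Of the log2 fold changes of the 19 genes given by array, under the alternatives other than the fold minimums, 818 values kept their direction and side of the threshold, 10 no longer passed, 8 newly passed and 0 reversed. Many of these settings could not reverse a direction. The variance models, the replicate block, the methods' t-test and other sets of probe sets leave each log2 fold change as it is. Leaving out an array of the other LSMMG time does so too. Fold minimums end calls by construction. With at least 1.5-fold, 5 genes rose and 14 fell at 5 generations while 8 rose and 14 fell at 25, and with at least 2-fold 1 rose and 9 fell at 5 while 2 rose and 6 fell at 25. No share of named probe sets was computed at 1.5-fold, so those counts have no background here. With controls of the same generation only, 8 were higher at 5 generations. Leaving out each array in turn gave 8 to 15 rises and 20 to 26 falls at 5 generations, 14 to 18 rises and 21 to 23 falls at 25, 0 to 4 between the LSMMG times, 0 to 19 between the controls and 0 to 12 in the interaction. The 19 and the 12 were found without Ctrl 5 replicate 3, and other omissions gave 0.

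Between the LSMMG times 8 genes passed after quantile normalization, 8 without Ctrl 5 replicates 1 and 2, 16 with array weights, whose estimate stopped before it converged, and 1 (DPM1) with a trended and robust prior. Array weights gave 20 genes between the controls and 15 in the interaction, and quantile normalization 3 in the interaction (DPM1, ALG14 and MNN4). Shares of all probe sets were not computed for these settings. With the methods' t-test 12 genes rose and 26 fell at 5 generations, and 17 rose and 21 fell at 25. It lost OST3 and OST6 at 5 generations and SEC53 at 25, and gained other calls. With the trended and robust prior 13 rose and 22 fell at 5 generations, and 16 rose and 21 fell at 25. It lost PMT1 at 5 and STT3 at 25. These counts have no background either. The causes were not tested. With the replicate block, 12 genes rose and 23 fell at 5 generations, 16 rose and 23 fell at 25, and 1 (ALG5) passed between the LSMMG times. Of 18 same-numbered pairs of arrays in different groups, 5 correlated above 0.1 (range -0.278 to 0.49), and the numbers were not taken as pairs. The 18 pool pairs within 1 condition with pairs of LSMMG and control arrays. Whether arrays of the same condition at the 2 times came from 1 culture line was therefore not tested. Each of the 54 genes has 1 probe set, so averaging probe sets gave no value. A block by slide or scan, and filters on signal, were not run.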
